A study of Arabidopsis thaliana with 4 samples.

Results

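Plates 17 to 30 of the TC series are a block of printed array wells with a low log ratio between chromatin carrying dimethylated lysine 4 of histone H3 (H3K4me2) and input DNA. The block was taken as every valued probe whose name starts with TC, followed by a plate number from 17 to 30 and a well. This gave 1122 of the 21728 valued probes on the array, or 5.16%, in 13 plates, since plate 26 held no probes. The plates had been selected on their low median log ratio in these same values (plate medians under -1), so their level is a description and carries no test. Other low stretches of the array, plates 21 to 30 and 37 to 51 of the TA series, and the neighbouring plates 0 to 13 of the TC series serve below as points of comparison.

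The material was untreated Arabidopsis thaliana of the accession Col-0, taken as whole seedlings at 10 days of age after growth at 22 °C in liquid medium under a 16 hour photoperiod. Immunoprecipitated DNA and its own input were hybridised together on 2-colour arrays, as a dye swap for each of 2 replicates, I and II. Both columns of a dye swap held identical values (0 features differed), so n was 2. No label tells whether separate cultures stand behind I and II, and any spread between them may be technical. Whole seedlings hold many cell types, and a ratio shared by all cells cannot be told apart from a mixture of cells that differ.

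H3K4me2 is written by SET-domain methyltransferases of the Trithorax group and is recognised as a mark of genes. In Arabidopsis it lies along transcribed and many weakly transcribed genes. It is generally scarce in the transposon-rich heterochromatin around the centromeres, where dimethylation of lysine 9 and DNA methylation prevail. The probes could not be placed on this landscape here, because the files used paired them with neither genes, positions nor sequences.

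Every value given here is a log ratio in deposited units, minus the median of all valued probes on the array in that replicate. The log base is unstated, and the files did not show which channel, immunoprecipitate or input, a positive value favours. High and low therefore refer to the ratio, not to the amount of the mark, and no fold is given. The array median taken off was -0.02 for replicate I and 0.47 for replicate II.

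The block lay low in both replicates. Its median was -1.56 in replicate I and -1.68 in II, which averages to -1.62 ± 0.08 (SD, n = 2). All other probes together had a median of 0.07 in replicate I and 0.09 in replicate II. The middle 90% of the members, by the mean of both replicates, ran from -1.92 to -0.72, and 1104 members were below the array median in both replicates. With limma's moderated test of each probe against the array median (Benjamini-Hochberg adjusted p under 0.05 over all probes), 1092 members were called lower, where 40.2% of all probes were. Of the members, 7 were called higher, where 40.3% of all probes were, and 23 were not called. These calls used the values that had chosen the plates and only describe them.

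**Figure D1:**
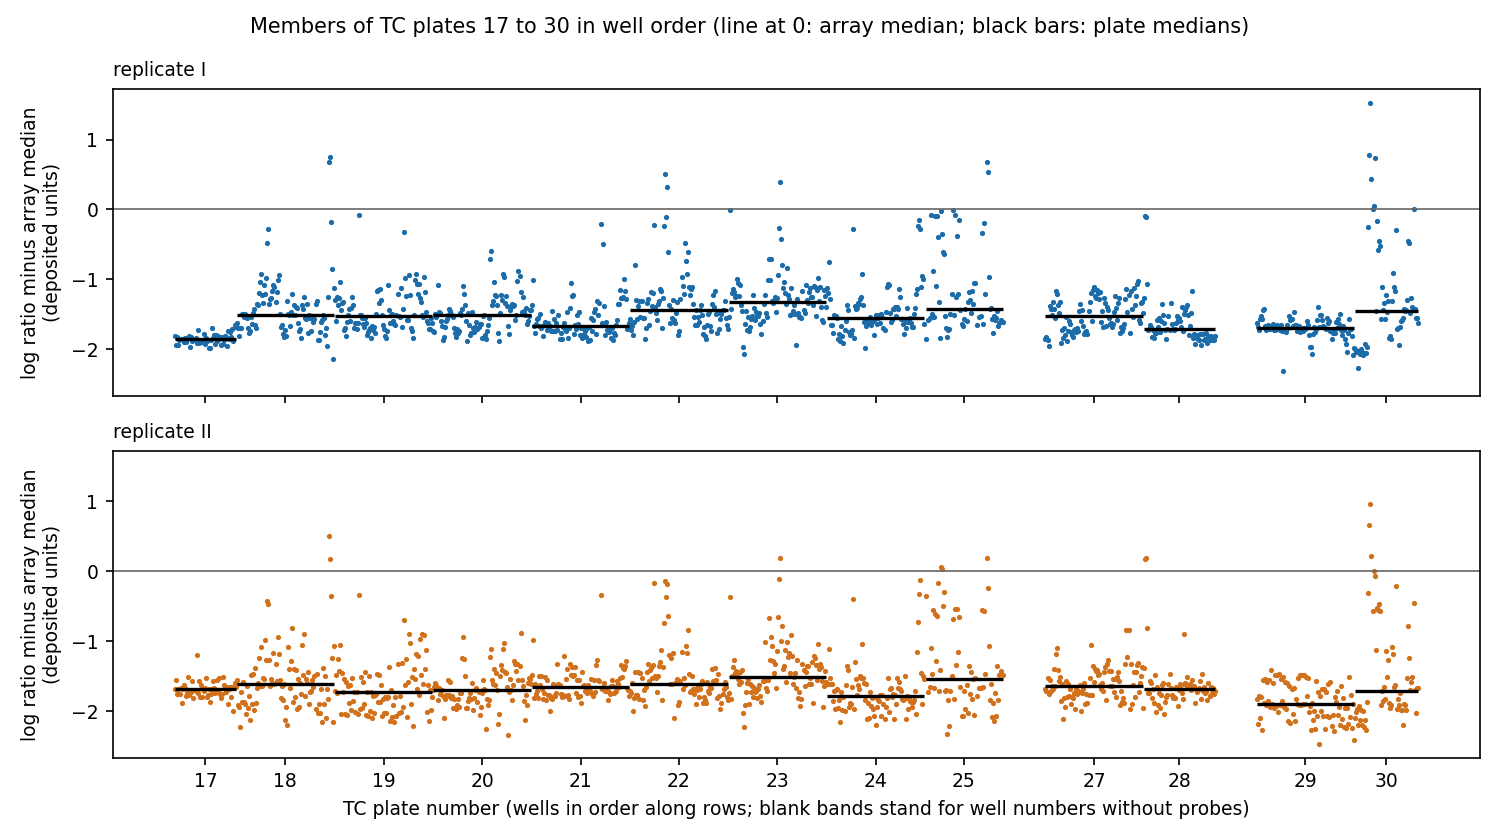
Log ratio minus the array median (vertical axis, deposited units) of each member of TC plates 17 to 30, in well order along plate rows (horizontal axis, labelled by plate), for replicates I and II. Black bars are plate medians and the grey line at 0 is the array median. Most members lie near -1.6 in both panels, and plate 17 forms a narrow band. The few high members sit in short groups or alone, the highest in plate 30.

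The wells with probes formed 3 unbroken stretches of well numbers. The longest ran from TC17D01 to TC25G05 and held 798 members, the next from TC27A01 to TC28F10 with 166, and the last from TC29A01 to TC30F02 with 158. Their medians were -1.52, -1.63 and -1.67 in replicate I and -1.66, -1.67 and -1.86 in replicate II. The last stretch was thus the lowest in both replicates, and it held 16 of the 23 members below -2. The first member, TC17D01, had -1.81 in replicate I and -1.68 in replicate II, and the last, TC30F02, had -1.62 and -1.66. Both end members were therefore near or below the block's median. No well had an entry directly before the first or directly after the last, so a step up at either edge could not be seen. The last plate before the block, plate 13, ended at TC13C10 and had a median of -0.06 ± 0.08 (SD, n = 2, over 34 probes), whereas the plate of the block nearest to it in level, plate 23, was at -1.41 ± 0.13 (SD, n = 2).

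Plate medians stayed close together. They ran from -1.79 in plate 29 to -1.41 in plate 23, a range of 0.38, and had no trend with plate number (Spearman's rho -0.04 over 13 plates, as a description). Differences between plate means made up 13.1% of the variance over members, so most of the variation lay within plates. Replicate II was lower than replicate I in 10 of the 13 plates. Plates 17, 21 and 28 had the opposite order, with -1.85 against -1.69 in plate 17, -1.66 against -1.65 in plate 21 and -1.72 against -1.68 in plate 28.

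Within plates, the block held the most uniform stretches of the array. The SD over the wells of a plate, by the mean of both replicates, was 0.0687 in plate 17, 0.154 in plate 29, 0.217 in plate 27, 0.222 in plate 21 and 0.247 in plate 20. These are the 5 smallest of all 231 plates. The next was plate 43 of the TA series at 0.261. Plates 42, 40 and 45 of the TA series, with 0.314, 0.331 and 0.331, lay among the remaining plates of the block. The median over all plates was 0.724. Within the block only plate 30, with 0.784, exceeded that median, and plate 25 followed with 0.601.

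**Figure D2:**
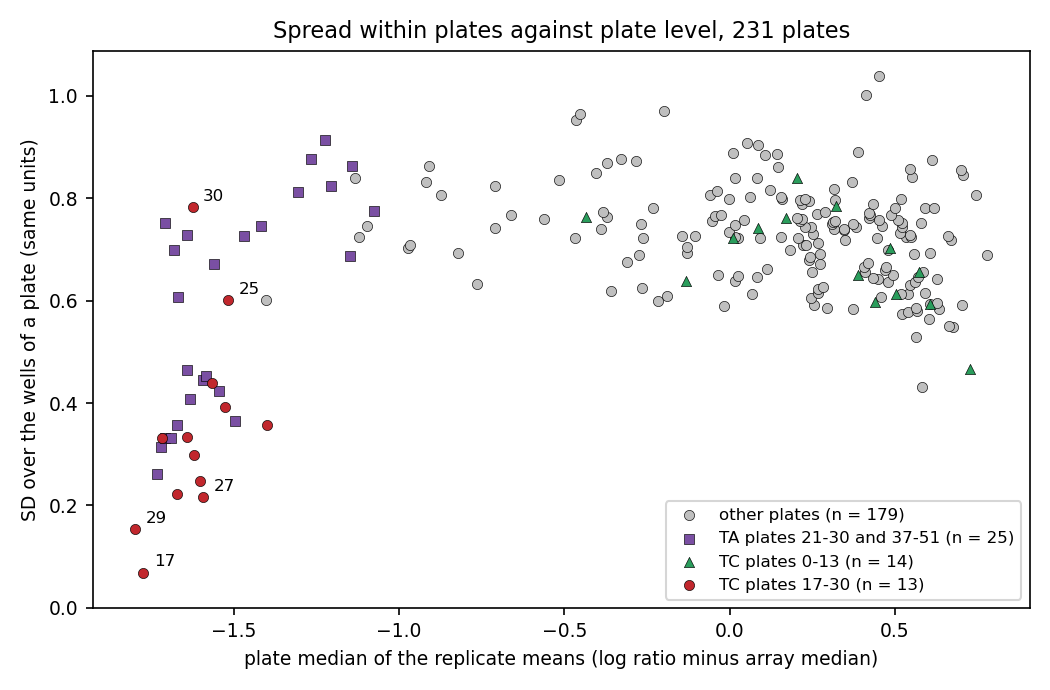
SD over the wells of a plate (vertical axis, deposited units) against the plate's median (horizontal axis, log ratio minus array median), both from the mean of the replicates, for 231 plates. TC plates 17 to 30 (red) hold the lowest SDs, led by plate 17 at 0.0687, while plates 25 and 30 lie among the plates of ordinary spread.

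Plate 17 did not resolve its probes from one another. All of its 59 members lay between -1.94 and -1.55, and their SD of 0.0687 was close to the 0.0705 that the difference between replicates alone would leave in a mean of both. The replicates did not order these members alike (r = -0.03 across 59 probes of the same arrays). Plate 29 was similar in the mean of both replicates, with an SD of 0.154 where the difference between replicates gave 0.136. Its r was 0.146 across 96 probes. By replicate its SD was 0.140 in I but 0.255 in II, where even columns had a median of -2.06 and odd columns of -1.64. The low r of plate 29 therefore does not show that its values lacked order in replicate II. In the other 11 plates the replicates shared more of the order, with r from 0.633 in plate 21 to 0.954 in plate 30. A further narrow stretch, picked out after its values were seen, filled rows E and F of plate 28. Its 22 members had an SD of 0.0655 and medians of -1.83 in replicate I and -1.71 in replicate II, next to -1.85 and -1.69 in plate 17.

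Row A of plate 30, also picked out after its values were seen, was another such stretch at a lower level. Its 12 wells lay between -2.23 and -1.98, with medians of -2.04 in replicate I and -2.11 in replicate II. The lowest member of the block, TC30A04, stood there with -2.26 in replicate I and -2.20 in replicate II. TC30A12, also among the 5 lowest, had -2.06 and -2.26. The others of the 5 lowest were TC29H12 with -1.98 and -2.41, TC18H11 with -2.14 and -2.15, and TC23B04 with -2.07 and -2.22. The low end of the block went no further than that of the array, whose lowest probe was at -2.40.

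Over the block as a whole, members varied by more than the replicates did. The SD of the member means was 0.393, and the difference between replicates alone would give 0.127. The replicates correlated with r = 0.810 and Spearman's rho = 0.595 across the 1122 members, which share arrays and printing. Leaving out the 74 members above -1 lowered r to 0.513 and the SD to 0.220. This cut was made on the mean of the same 2 replicates, which narrows the range and by itself lowers r. The drop therefore does not measure what the high members carried. Among the low members a part of the order was still shared.

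Compared with the other low stretches, the TC block had the smallest SD, a measure on which a few high members weigh heavily. Its SD over members was 0.418 in replicate I and 0.408 in replicate II. TA plates 37 to 51 had 0.510 and 0.554, TA plates 21 to 30 had 0.785 and 0.842, and TC plates 0 to 13 had 0.755 and 0.752. The order was the same in both replicates for the 3 low stretches. The smallest two-sided p of an exact test over 2 replicates is 0.5, so this difference was not tested. By the interquartile range of the member means, the TC block (0.343) was close to TA plates 37 to 51 (0.380). TA plates 21 to 30 had 0.873. Members above -1 made up 6.60% of the TC block, 11.2% of TA plates 37 to 51 and 34.0% of TA plates 21 to 30. Values below -2 were about as common in all 3, at 2.05%, 2.14% and 1.92%, so the shares lay apart at the upper end and close together at the lower end.

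The members that rose out of the low level were few and mostly stood in groups. By the mean of both replicates, 74 members lay above -1, 46 above -0.5 and 15 above 0, and 8 were above 0 in both replicates. They occurred in 11 of the 13 plates, with none in plates 17 and 29, and plates 25 and 30 held 32 of the 74. Of these, 10 occupied a special set of positions in plate 25 that is described further on. The other 64 formed 34 runs of consecutive wells. A run of at least 2 wells contained 42 of the 64, in 12 runs, and 22 stood alone. The 127 direct neighbours of the 64 (a well next to both of a pair is counted for each) had a median of -1.04, against -1.64 for neighbours of the members at or below -1. These neighbours include other members of the same runs, which are above -1 by the cut, so the value partly restates the runs.

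The highest peak was in plate 30 and ran over 7 wells, from TC30B02 to TC30B08, directly after the lowest row of the block. TC30B04, the highest member of the block, had 1.52 in replicate I and 0.97 in replicate II, averaging 1.24 ± 0.39 (SD, n = 2). On its left stood TC30B03 with 0.78 and 0.66 and TC30B02 with -0.25 and -0.31. On its right stood TC30B05 with 0.44 and 0.22, followed by TC30B06 with 0.004 and -0.56 and TC30B07 with 0.05 and 0.003. From TC30B04 the values fell over 2 wells on the right in both replicates and then rose again. The run ended with TC30B08, which had 0.73 in replicate I but -0.07 in replicate II, and TC30B09 was low at -1.45 and -1.13. Another run, picked out after its values were seen, followed over 4 wells from TC30B10 to TC30C01 and reached a mean of -0.35. TC30B03, TC30B04, TC30B05 and TC30B08 were among the 7 members called higher. TC30B08 was called although its replicates had opposite signs, because limma took most of the variance from all probes pooled.

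The other called members stood in plates 18 and 25. TC18H07 had 0.67 in replicate I and 0.50 in replicate II, and TC18H08 had 0.75 and 0.18. The well before this pair, TC18H06, was at -1.25 and -1.82, and the well after it, TC18H09, at -0.19 and -0.35, so the rise was abrupt and the descent slower. TC25F01 had 0.67 and 0.19 and its follower TC25F02 had 0.53 and -0.24. The smallest mean among the members called higher was 0.33 and the largest among those not called was 0.29. Other runs, picked out after their values were seen, spanned 5 wells from TC22C10 to TC22D02, which crosses from one plate row to the next, 5 wells from TC23E01 to TC23E05 and 4 wells from TC25B04 to TC25B07. Their highest means were 0.19, 0.29 and 0.02, near the array median. A run of 3 wells, TC28A02 to TC28A04, reached 0.04.

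**Figure D3:**
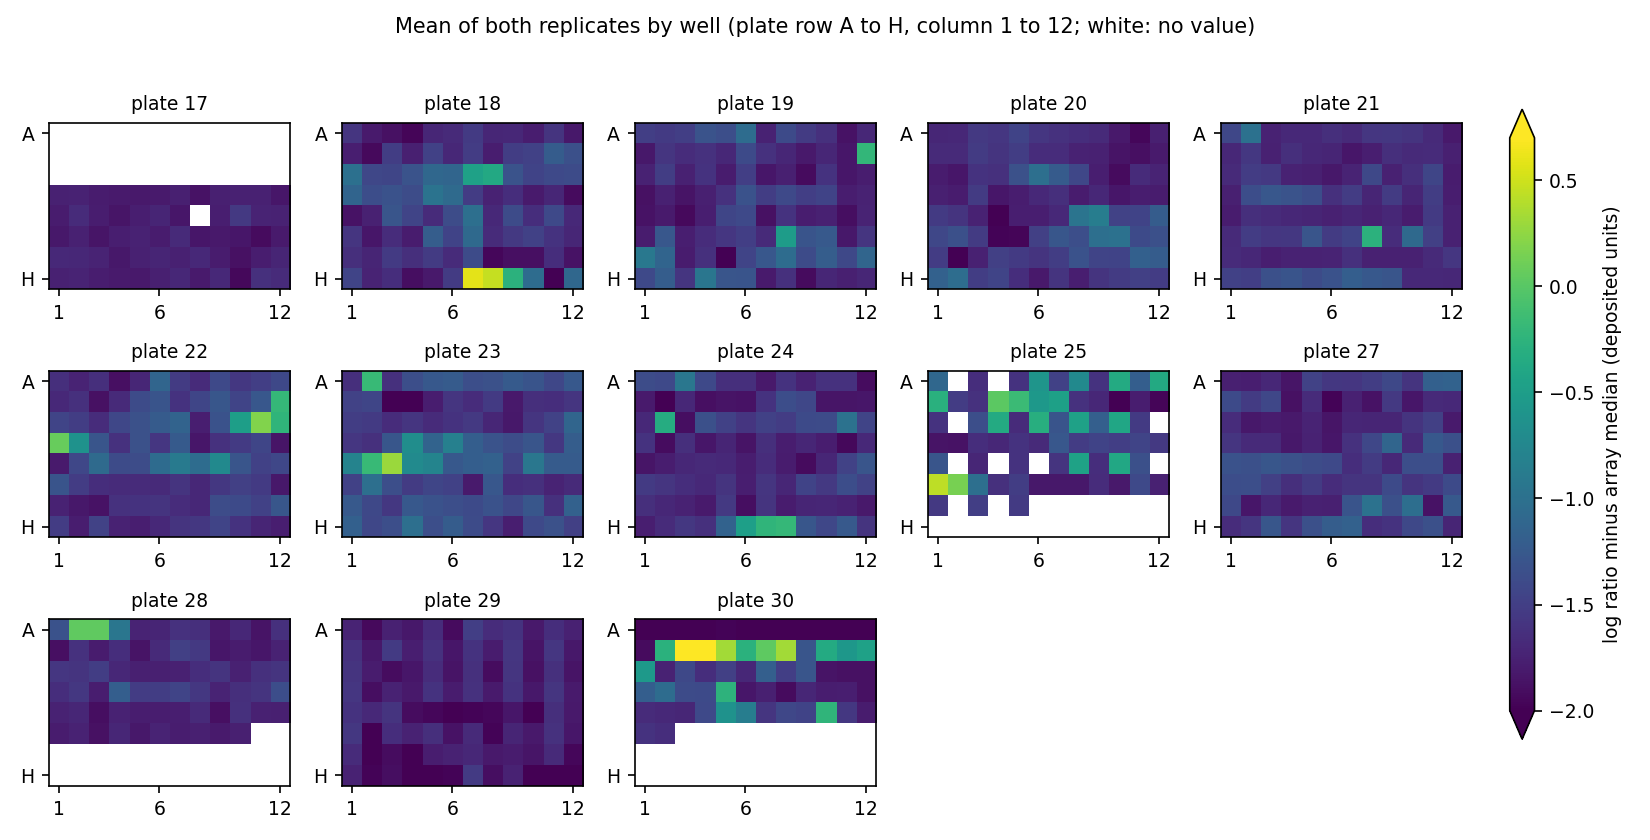
Mean of both replicates (colour, log ratio minus array median, deposited units) in each well of the 13 plates, drawn as plate rows A to H against columns 1 to 12, with wells without a value in white. High wells form horizontal groups, such as row B of plate 30 and the end of row H in plate 18, while plate 25 shows single bright and empty wells alternating with dark ones.

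Plate 25 held high values of another kind, set by well position. Its wells in rows A, C, E and G and in even columns, 20 in all, comprised 10 empty wells and 10 valued ones, and all 10 valued wells lay above -1. In replicate I these 10 had a median of -0.12, with a range from -0.88 to -0.01. In replicate II their median was -0.59, with a range from -1.09 to -0.54. The other 57 members of the plate had medians of -1.50 and -1.65. The 20 direct neighbours of these positional wells had a median of -1.48. The positional wells are all in even columns and so are never consecutive, and they could not form runs like those above. Before centring, in deposited units, their median was -0.14 for replicate I and -0.13 for replicate II, so in this plate the replicates were close together before centring and stood apart after it. Across all 231 plates, the difference between such wells and the rest of their plate was largest in plate 25, at 1.16, against a next largest size of 0.85 and a median size of 0.147. In the other 12 plates of the block it ran from -0.29 to 0.18. The positions were noticed after the values were seen, and why these wells differed was not tested. With them left out, the level of the block was still -1.62 and its SD 0.380.

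**Figure D4:**
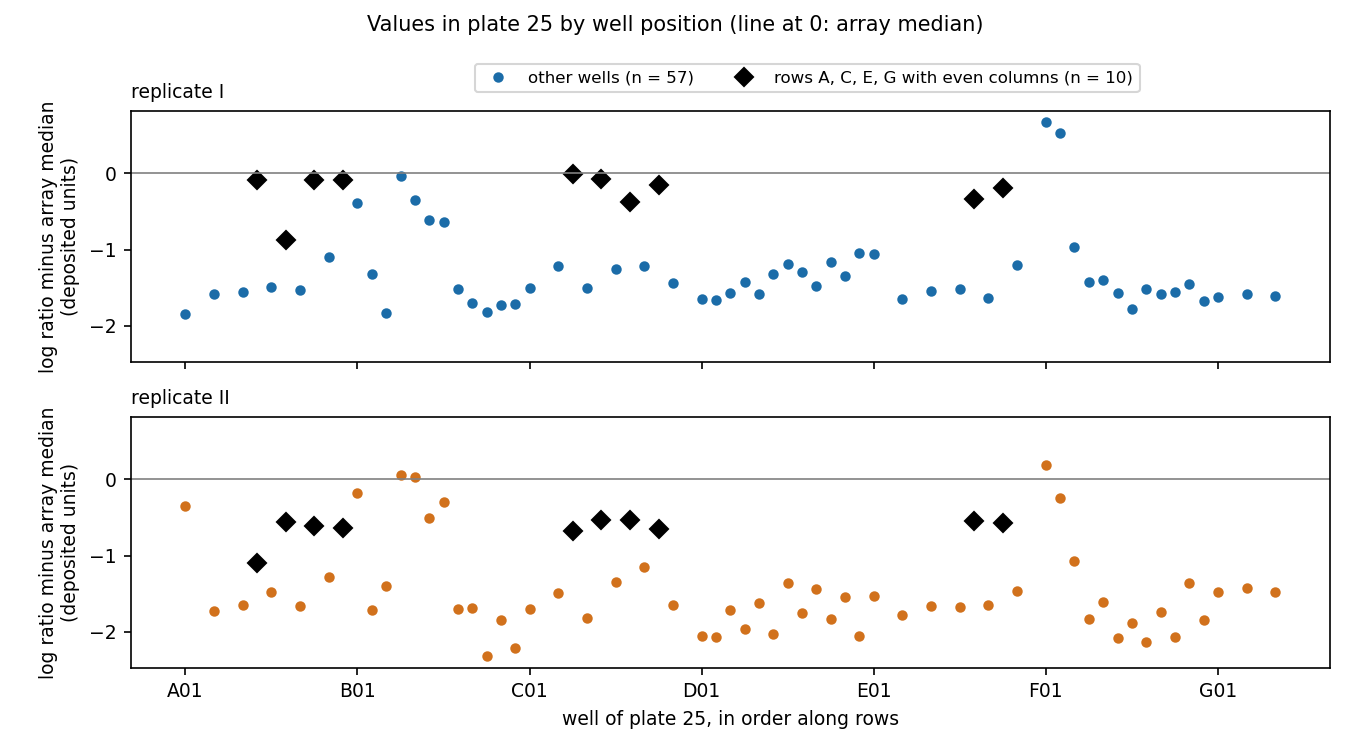
Log ratio minus the array median (vertical axis, deposited units) of the 67 members of plate 25 by well (horizontal axis, in order along rows), for replicates I and II. Black diamonds are the 10 valued wells in rows A, C, E and G with even columns, and coloured points are the other 57. The diamonds have medians of -0.12 and -0.59, above most of their neighbours, while the high wells at B04 to B07 and F01 to F02 belong to the other positions.

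Missing wells were of 2 kinds. In the 13 plates, 115 wells had no entry at all, 36 in plate 17, 19 in plate 25, 26 in plate 28 and 34 in plate 30. These were the first 3 rows of plate 17 and the ends of the other plates, so they bounded the 3 stretches and left no hole inside them, and the other 9 plates were complete. A further 11 wells had an entry without a value on any array, TC17E08 and the 10 wells of plate 25. All 11 were in rows A, C, E or G and in an even column. The same held for 30 of the 33 empty wells on the array, although such positions made up 25.02% of the named wells. The block thus held 11 of the 33 empty wells with 5.16% of the valued probes, and 10 of them came from plate 25.

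The order of the probes carried structure inside the block. Values of consecutive wells correlated with r = 0.602 over 1108 pairs. The correlation fell to 0.498 at a distance of 2 wells, 0.308 at 3, 0.207 at 6 and 0.0771 at 12. Wells next to each other in a row (r = 0.600, 1017 pairs), wells joined across the end of a row (r = 0.653, 81 pairs) and wells joined across the border of a plate (r = 0.595, 10 pairs) were alike in this. Wells directly below each other on the plate, which also touch, had r = 0.0519 over 959 pairs. The likeness thus followed the numbering of the wells rather than their place on the plate. All pairs share the same arrays, and a probe occurs in several pairs, so these correlations describe the block and have no p.

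The likeness of neighbours was seen between the replicates and among the low members too, where consecutive wells were less alike in replicate II. Over all members, replicate I at a well correlated with replicate II at the next well with r = 0.532, and in the opposite direction with r = 0.531. Without the 74 members above -1, consecutive wells correlated with r = 0.500 in the mean of both replicates. This was 0.638 in replicate I but 0.208 in replicate II, and 0.344 and 0.334 between the replicates. At a distance of 2 wells the low members had 0.521 in replicate I and 0.492 in replicate II, and at 3 wells 0.422 and 0.072. Replicate II was thus far weaker at 1 and 3 wells but close to replicate I at 2 wells. With plate medians taken off first, r of consecutive wells in the mean was 0.562 over all members and 0.401 without those above -1. The strength varied between plates, from r = -0.05 in plate 29 and -0.02 in plate 17 to 0.720 in plate 30. Plates 17 and 29 had the smallest SDs in the mean of both replicates. In replicate II of plate 29, however, even columns (median -2.06) and odd columns (-1.64) stood apart, which by itself lowers r between consecutive wells. The correlation of consecutive wells was 0.704 in TA plates 37 to 51, 0.804 in TA plates 21 to 30 and 0.658 in TC plates 0 to 13, where the values ranged more widely.

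The replicates differed in how they declined with distance. In replicate I the correlation fell steadily, from 0.634 at 1 well to 0.507 at 2, 0.349 at 3 and 0.225 at 5. In replicate II it was 0.483 at 1 well, 0.476 at 2, 0.203 at 3, 0.292 at 4 and 0.137 at 5, so that even distances stood above the odd ones beside them from the third well on. The difference between replicates had no such decline but an alternation, with r of 0.156 at 1 well, 0.431 at 2, -0.01 at 3, 0.374 at 4 and still 0.320 at 12. Members in columns of the same parity thus deviated together over the length of a plate row. TC plates 0 to 13 alternated too, with 0.220 at 1 well, 0.272 at 2, -0.02 at 3 and 0.182 at 4, so the pattern was not limited to the block. In TA plates 37 to 51 the difference correlated with 0.401 at 1 well, 0.334 at 2, 0.134 at 3 and 0.174 at 4. Further on it had 0.063 at 5, 0.106 at 6, 0.040 at 7 and 0.083 at 8. This is a decline with an alternation of smaller size.

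**Figure D5:**
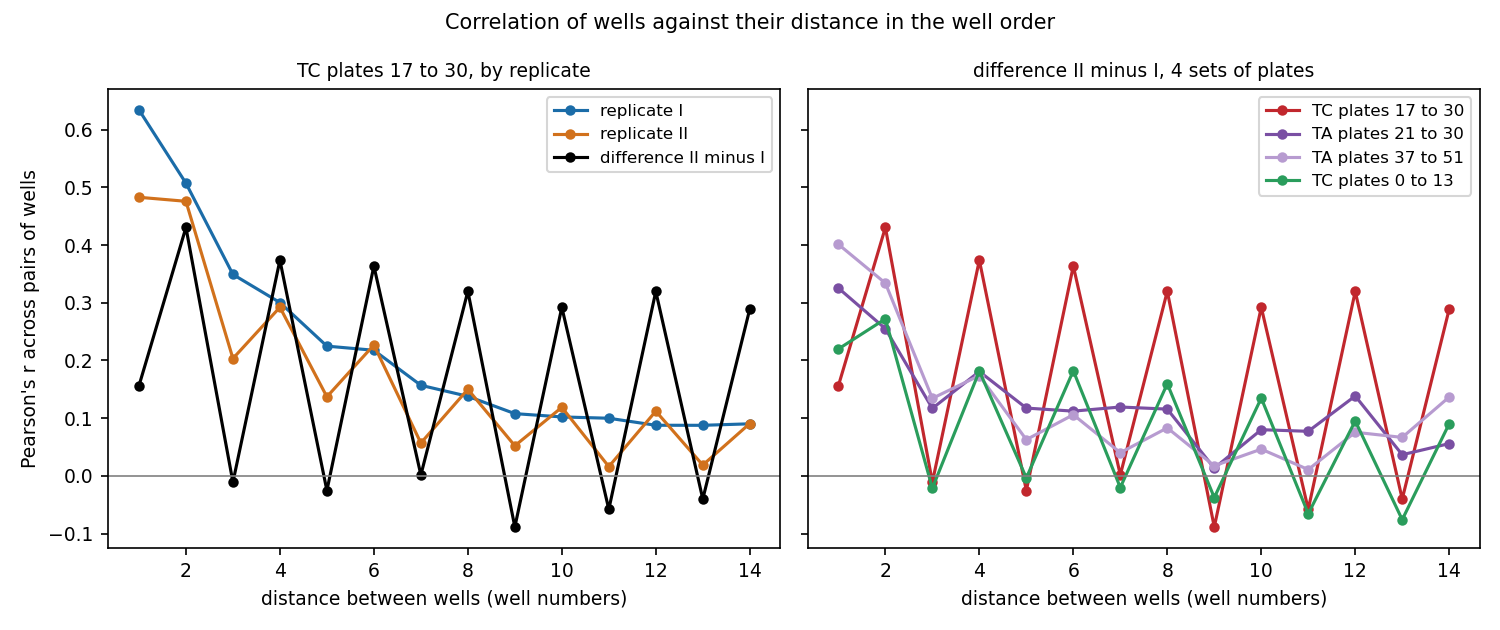
Pearson's r across pairs of wells (vertical axis) against the distance between them in well numbers (horizontal axis), on the left for replicate I, replicate II and their difference in TC plates 17 to 30, and on the right for the difference between replicates in 4 sets of plates. The difference in the TC block swings between 0.431 at 2 wells and -0.01 at 3, and TC plates 0 to 13 swing likewise over a smaller range, while replicate I declines smoothly.

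Odd and even columns of several plates stood at separate levels in replicate II. In plate 29, even columns had a median of -2.06 and odd columns of -1.64 in replicate II, against -1.70 and -1.69 in replicate I. In plate 18 the replicate II medians were -1.82 in even and -1.51 in odd columns, against -1.51 in both in replicate I. Plate 19 went the other way, with -1.52 in even and -1.99 in odd columns in replicate II and -1.54 and -1.51 in replicate I. In these 3 plates the stripes were thus seen in 1 replicate, and their direction changed between plates. Splitting plates into odd and even columns accounted for 24.7% of the variance within plates in the replicate difference in the block and 12.7% in TC plates 0 to 13. It was 4.89% in TA plates 37 to 51, 1.40% in TA plates 21 to 30 and 7.64% over all probes outside the block. For the mean of both replicates it accounted for 2.88% in the block and 0.617% elsewhere. The change of the difference between odd and even columns exceeded 0.3 in size in 4 of the 13 plates (18, 19, 25 and 29), and in 23 of the 218 other plates. In plate 25 the positional wells lie in even columns. Without them, the even columns had -1.42 and the odd -1.51 in replicate I, against -1.90 and -1.53 in replicate II. The 18 even wells left are all in rows B, D and F, while the 39 odd ones span rows A to G. This contrast therefore mixes columns with rows, and a stripe cannot be told apart from a difference between rows. Whether the stripes came from printing, hybridisation or normalization was not tested.

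The difference between replicates had an SD of 0.255 over the members. The member with the largest difference was TC25A01, with -1.85 in replicate I and -0.35 in II. TC21F10 followed with -0.49 and -1.65, and TC22E06 with -0.48 and -1.62. Each of the 3 was close to the block's level in 1 replicate and well above it in the other, so none of them counts as a stable high member. By row and by column over all plates, medians stayed within narrow limits, from -1.66 in row G to -1.58 in row H and from -1.71 in column 12 to -1.59 in column 7.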

How the data were processed

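H3K4me2 immunoprecipitate and input were measured on 4 arrays of 1 group. The deposited log ratios carry no stated base, direction, background correction or normalization, so none of these is known here. Signal over background was not examined. The identical dye-swap columns were averaged to 1 profile per replicate and centred on the array median, with no loess or quantile step. Of 21800 features, 21761 had plate names and 21728 had values.

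With limma 3.58.1 in R 4.3.3, an intercept-only model tested every probe against 0, two-sided, and p-values were adjusted by Benjamini-Hochberg over the whole table (0.05). Its prior degrees of freedom, estimated at 117, are poorly determined with 1 residual degree of freedom. The fit and the neighbour correlation were tested on simulated data. Everything else is descriptive (Python 3.11.15, numpy 2.4.6, pandas 2.3.3, matplotlib 3.10.9). Wells were ordered along rows, 96 to a plate. The limits of -1, -0.5, 0 and -2 are round numbers. The members, comparison plates and lists were chosen with earlier results of these data known. Named probes are the members called higher with their neighbours, the 5 highest and 5 lowest, the first and last, and the 3 with the largest replicate difference; others are marked where named. The number of arrays limits the precision. Alternatives covered centring, threshold, prior, summary measure, members kept, order of wells and single replicates.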

Additional observations from a re-analysis of the deposited data

How the results depend on the processing

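Of 50 alternatives, 27 left a count within 1.5 times its value or a value within the spread between replicates, 23 moved it and 0 turned its sign. The correlation of the replicates has no spread between replicates, so all its alternatives counted as moved, also 0.815 and 0.802 against 0.810. All alternatives of the members' SD counted as moved too, as its values in the single replicates lay close together. The count of 23 therefore does not measure how strongly the results depend on the processing. The members called lower stayed between 1063 and 1114. Of those called higher, 7 in all, 1 was left with centring on the main mode and 3 with prior degrees of freedom of 4, while limits on the mean gave 74 above -1, 46 above -0.5 and 15 above 0. The level was -2.19 when centred on the main mode, which shifts all values alike, and -1.68 to -1.56 with 1 replicate left out. The range of plate levels was 0.531 with plate means and 0.389 to 0.532 with 1 replicate left out. The spread was 0.254 from the interquartile range, 0.232 from the median absolute deviation, 0.356 without members called higher, 0.380 without the positional wells of plate 25, 0.220 without members above -1, and 0.408 to 0.418 with 1 replicate left out. The correlation of the replicates was 0.595 by rank, 0.774 without members called higher, 0.815 with plate medians removed, 0.802 without the positional wells and 0.513 without members above -1. Consecutive wells correlated with 0.0504 down the columns and with 0.483 to 0.634 with 1 replicate left out. Counting wells with no entry in place of wells without a value gave 115. The cause was not tested where the construction does not show it. Normexp or loess was not run because no scanner intensities were used, and with a single replicate no probe can be tested. Alternatives without the positional wells, without members above -1 for level, spread and replicate correlation, without plates 17, 25 or 30, with replicate II before replicate I, and with another threshold, prior or no centring for the high members were chosen after seeing the data. Signal over background, which would limit the low values, was not examined.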

Other observations

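On 3 plates outside the block, wells in rows A, C, E and G with even columns were also empty in numbers of 3 or more. Plate 94 of the TA series had 5 such wells, plate 26 of the TB series 7 and plate 58 of the TB series 4. The valued wells in the same positions had medians of 0.001 and -0.08 in plate 94, -0.01 and -0.11 in plate 26, and -0.09 and -0.10 in plate 58, in replicates I and II. Before centring, in deposited units, the same wells had -0.02 and 0.39, -0.03 and 0.35, and -0.11 and 0.37, so here the replicates came together only after centring, unlike in plate 25 of the TC series. The rest of these plates had medians of 0.30 and 0.47, 0.82 and 0.87, and 0.47 and 0.55. There the positional wells were therefore lower than the rest of the plate by the median of replicate means (-0.44, -0.85 and -0.64), whereas in plate 25 of the TC series they were higher. In all 4 plates the positional wells lay between the rest of their plate and the array median, or close to that median. This was noticed after the values were seen, and its cause was not tested.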
